A study of Homo sapiens with 8 samples.

Results

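Transition factors that set the mesenchymal state, together with the cadherins of mesenchymal cells, were followed by their messenger RNA in LX-2 cells, a human hepatic stellate cell line, in which the enzyme O-GlcNAc transferase (OGT) was left active or inhibited. The 10 genes listed were SNAI1, SNAI2, TWIST1, TWIST2, ZEB1, ZEB2, PRRX1, CDH2, CDH6 and CDH11, taken by gene symbol. Of these, 9 were among the 16796 genes of the count files, all 9 had enough counts to enter the comparison of 14895 genes, and PRRX1 is not analysed here. The LX-2 line is a single immortalised line of activated stellate cells grown in medium with 5% serum. Control cells received the solvent DMSO, and OGTi cells received OSMI-1, a small molecule that inhibits OGT, at 50 µM, both for 24 h. There were 4 biological replicates of either treatment, 1 library each, and a control and an OGTi library of the same number were treated as a pair.

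In epithelial cells, SNAI, ZEB and TWIST proteins repress genes of cell junctions, above all the E-cadherin gene CDH1, and permit the passage to a motile mesenchymal state. SNAI and ZEB proteins bind through zinc fingers to short E-box sequences in DNA, while TWIST proteins are basic helix-loop-helix factors that bind DNA as dimers with E proteins. Fibroblasts and stellate cells carry these factors as part of their ordinary identity and join to each other through N-cadherin (CDH2) and cadherin-11 (CDH11), whose tails hold the actin cytoskeleton through catenins. Only RNA was measured here, and several of these factors, SNAI1 above all, are known to be controlled also through the lifetime of the protein.

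The libraries held between 24166756 and 28201215 counts, and 43.9% of all genes tested were called changed by OGTi, 21.4% higher and 22.6% lower. A gene was called when its p-value from the Wald test of DESeq2, adjusted by Benjamini-Hochberg over all genes tested (q), was 0.05 or lower. Of the stellate markers, 11 of 12 were tested, 6 were called lower and 0 higher (also 0 in edgeR and at an unadjusted p under 0.05). Their summed normalized count was 115893 to 141150 in control and 57566 to 70058 in OGTi libraries. Most of this sum was COL1A1 (mean of 84778 in control and 43931 in OGTi) and TAGLN (29724 and 14023). PDGFRA and RGS5 were not called (q of 0.0574 and 0.635 in DESeq2). Collagen I and PDGFRB were abundant, whereas DES, LRAT and LUM each averaged under 4 normalized counts in either group. Of 7 hepatocyte markers only SERPINA1 was tested, which was not called (log2 fold change -0.08). Of the 6 macrophage and leukocyte markers, CD68 was called higher (3236 ± 659 to 7687 ± 1622 normalized counts). CD14 was not called (61.8 ± 18.4 to 68.1 ± 22.8, q of 0.764), PTPRC and CSF1R averaged under 10 in both groups, and CD163 and MARCO had no row. The summed level, nearly all of it CD68, was 2482 to 4089 in control and 5610 to 9391 in OGTi libraries. The endothelial markers summed to 47.7 to 91.1 in control and 17.0 to 33.8 in OGTi, with CDH5 the 1 of 3 tested that was called. Of the cholangiocyte markers, KRT7 was called lower and SOX9 higher. The part of these marker levels in the results that follow was not tested. All libraries came from the LX-2 line, and in bulk RNA fewer cells expressing a gene and less RNA per cell cannot be told apart.

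Of the 9 measured genes, 6 were called, or 66.7% beside 43.9% of all genes tested. With no replicate block 4 of the 9 were called by DESeq2, or 44.4% beside 42.3% of all genes, and edgeR also called 4, so the higher share of this set rests on the block. SNAI1 and TWIST2 rose, whereas SNAI2, TWIST1, ZEB2 and CDH11 fell. ZEB1, CDH2 and CDH6 did not pass the test. The median log2 fold change of OGTi over control was -0.29 over the 9 genes and 0.00 over all genes tested. In 4 of the 9 genes (SNAI1, TWIST1, ZEB2 and CDH11) the control and OGTi libraries did not overlap, beside 38.0% of all genes. OGTi lay above control in 1 of them (18.8% of all genes) and below in 3 (19.2%). The direction was the same in all 4 pairs for 8 of the 9 genes, ZEB1 being the exception, beside 55.9% of all genes. CDH6 is among the 8, but its deposited counts in replicate 4 were 2 and 2. Its direction in that pair came only from the scaling for depth. In the SNAI and TWIST pairs the partners were called in opposite directions, and of the ZEB pair only ZEB2 was called.

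**Figure D1:**
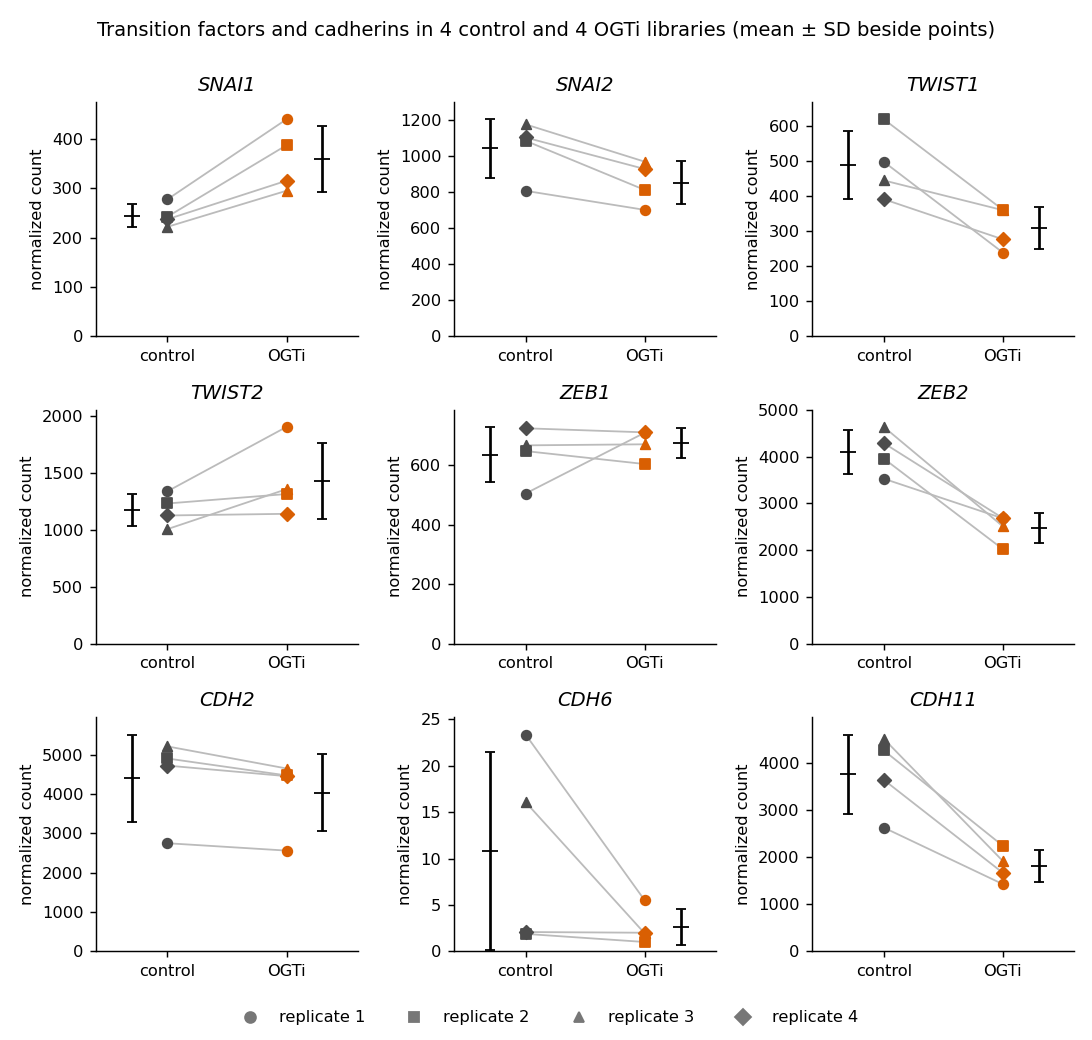
Normalized counts (vertical axes, from 0) of the 9 measured genes in each library, with control in grey, OGTi in orange, a marker shape for each replicate number, lines joining pairs, and mean ± SD beside the points (n = 4). The OGTi libraries of SNAI1 lie at 295 to 440.5, all above control, and those of TWIST1, ZEB2 and CDH11 all lie below control. Replicate 1 is the lowest of both groups for SNAI2, CDH2 and CDH11.

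SNAI1 encodes Snail, the zinc finger repressor that acts early in epithelial to mesenchymal transition (chr20:49982980-49988886, plus strand of GRCh38, 3 exons). Its normalized counts, which are counts divided by the size factor of the library, were 278, 242, 222 and 237 in control replicates 1 to 4 and 440.5, 388, 295 and 316 in the OGTi replicates. Every OGTi library was above every control library, with replicate 1 the highest and replicate 3 the lowest of both groups. The mean rose from 245 ± 23.6 to 360 ± 66.9 (SD, n = 4), a log2 fold change of 0.55 ± 0.14 (SE) with a q of 0.000618 in DESeq2. Leaving out each replicate in turn gave 0.50 to 0.59, past the threshold each time.

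SNAI2 encodes Slug, the paralog of Snail (chr8:48917598-48921429, minus strand). Its normalized counts were 805, 1082, 1173 and 1100.4 in control and 699, 810, 966 and 926 in OGTi replicates 1 to 4. OGTi was lower in each of the 4 pairs, but the groups overlapped, because control replicate 1 was below OGTi replicates 2, 3 and 4. The mean fell from 1040 ± 162 to 850 ± 121 (log2 fold change -0.29 ± 0.10, q of 0.00702 in DESeq2). This call depended on the pairing: with no replicate block DESeq2 gave a q of 0.0742 and edgeR one of 0.0827, and leaving out replicate 2 gave a log2 fold change of -0.24 with a q of 0.101.

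TWIST1, a basic helix-loop-helix factor of neural crest and mesoderm (chr7:19115468-19117636, minus strand), had 497, 618, 444 and 390.0 normalized counts in control and 238, 360, 359 and 275 in OGTi replicates 1 to 4. All OGTi libraries were below all control libraries, and replicate 2 was the highest of both groups. The mean fell from 487 ± 97.6 to 308 ± 61.2 (log2 fold change -0.66 ± 0.15, q of 3.43e-05 in DESeq2). It was lower in 4 of 4 pairs, and the value stayed between -0.79 and -0.53 when any replicate was left out.

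TWIST2, also called Dermo1, is the paralog of TWIST1 that is typical of dermal and other fibroblasts (chr2:238848085-238910534, plus strand). It had 1338, 1231, 1006 and 1125 normalized counts in control and 1904, 1314, 1357 and 1139.9 in OGTi. OGTi replicate 1 stood above the other 3 OGTi libraries, and the groups overlapped, although OGTi was higher in each of the 4 pairs. The mean was 1175 ± 142 in control and 1428 ± 330 in OGTi, and the log2 fold change of 0.26 ± 0.10 passed the test with a q of 0.0258 in DESeq2. The call was lost in fits with no replicate block, where DESeq2 gave a q of 0.113 and edgeR 0.123. It was also lost with replicate 1 left out, at 0.18 with a q of 0.214, and with replicate 3 left out, at 0.21 with a q of 0.187.

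ZEB1 encodes a zinc finger and homeobox repressor that is held low in epithelia by the miR-200 family (chr10:31319216-31529804, plus strand). Its normalized counts were 505, 647, 667 and 724 in control and 709, 604, 670.1 and 710.2 in OGTi. The groups overlapped over most of their range, and control replicate 1 was lowest. OGTi was higher in 2 of 4 pairs, the log2 fold change was 0.09 with a 95% interval of -0.15 to 0.33, and the q was 0.574 in DESeq2. The sign rested on replicate 1, since without it the value was -0.039 (q of 0.844).

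ZEB2, which encodes the sister protein SIP1 (chr2:144384081-144520119, minus strand), had the largest test statistic of the 6 measured SNAI, TWIST and ZEB genes. Control replicates 1 to 4 had 3529, 3961, 4638 and 4290.3 normalized counts, against 2679, 2020.0, 2508 and 2684 in OGTi. All 4 OGTi libraries were below the lowest control library. The mean fell from 4104 ± 473 to 2473 ± 313 (log2 fold change -0.73 ± 0.09, q of 1.14e-13 in DESeq2), and OGTi was lower in 4 of 4 pairs. Without each replicate in turn it was -0.84 to -0.65.

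Promoter windows of ZEB1 and ZEB2 from RefSeq (GRCh38.p14, 250 bases before and 50 from the start base on) are shown because these paralogs differed in their response. The window of ZEB1 is chr10:31318966-31319265 on the plus strand, at the start of its canonical transcript, and that of ZEB2 is chr2:144520070-144520369 on the minus strand. Of the 9 measured genes, 4 matched an entry of the table. Both read 5′ to 3′ on the strand of the gene, and capitals mark the E-box CAGGTG or its reverse complement CACCTG, the form bound by SNAI and ZEB proteins.
ZEB1: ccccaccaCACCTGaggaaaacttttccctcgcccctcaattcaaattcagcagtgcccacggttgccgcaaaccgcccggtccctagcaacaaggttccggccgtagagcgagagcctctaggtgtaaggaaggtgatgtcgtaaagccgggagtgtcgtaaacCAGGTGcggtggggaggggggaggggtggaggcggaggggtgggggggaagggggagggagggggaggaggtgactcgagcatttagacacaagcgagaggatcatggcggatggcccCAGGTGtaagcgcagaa
ZEB2: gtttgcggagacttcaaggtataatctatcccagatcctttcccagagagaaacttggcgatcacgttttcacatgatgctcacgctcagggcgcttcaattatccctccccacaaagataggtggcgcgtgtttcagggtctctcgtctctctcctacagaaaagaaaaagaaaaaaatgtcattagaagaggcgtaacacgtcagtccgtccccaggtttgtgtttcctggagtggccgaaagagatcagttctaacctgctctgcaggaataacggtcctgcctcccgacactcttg
The ZEB1 window held 3 E-boxes, whose first bases lay at -242, -85 and 33 relative to the start base, and the ZEB2 window held 0. Of all 35116 distinct windows in the table, 20.6% held at least 1 such E-box. The TEAD motif GGAATG, or CATTCC on the other strand, was in neither of the windows shown and in 14.0% of all windows, and no E-box overlapped a TEAD motif. ZEB1 had 7 windows for alternative starts, of which 2 held an E-box and 1 of those also CATTCC. The windows of TWIST2 and CDH2 held neither motif. A match in these windows describes letters only, and binding was not measured.

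The cadherins differed in the size of their change. CDH11 encodes cadherin-11, the classical type II cadherin of mesenchymal cells and fibroblasts (chr16:64943753-65122063, minus strand). Its normalized counts were 2623, 4259, 4506 and 3635 in control and 1423, 2235, 1911 and 1662 in OGTi replicates 1 to 4. All OGTi libraries were below all control libraries, and replicate 1 was the lowest of both groups. The mean fell from 3756 ± 840 to 1808 ± 348, which is 0.485 times control (log2 fold change -1.05 ± 0.08, q of 8.12e-34 in DESeq2). This was the largest change among the called genes of the set, and it was -1.10 to -0.98 when each replicate was left out.

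CDH2 encodes N-cadherin, the cadherin whose gain at the cost of E-cadherin is the usual sign of a mesenchymal switch (chr18:27950966-28177130, minus strand). It had 2748, 4903, 5210.4 and 4722 normalized counts in control and 2561, 4472, 4648 and 4454 in OGTi. Replicate 1 lay far below the other 3 replicates in both groups, and within each pair the values were close. OGTi was lower in 4 of 4 pairs by a log2 fold change of -0.12 with a 95% interval of -0.25 to 0.01, and the q was 0.134 in DESeq2. CDH2 therefore was not called, and the interval does not reach the change of CDH11.

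CDH6, or K-cadherin, a type II cadherin of kidney and neural tissue (chr5:31193686-31329146, plus strand), was close to the detection limit. Its deposited counts were 24, 2, 14 and 2 in control and 5.63, 1, 1.97 and 2 in OGTi. Only control replicates 1 and 3 had more than 6 counts, and the groups overlapped. The log2 fold change was -1.72 with a 95% interval of -3.66 to 0.22 (q of 0.148 in DESeq2), so no change was detectable at this depth. For the other 8 measured genes the deposited counts were whole numbers in every library, so no divided reads showed in them.

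**Figure D2:**
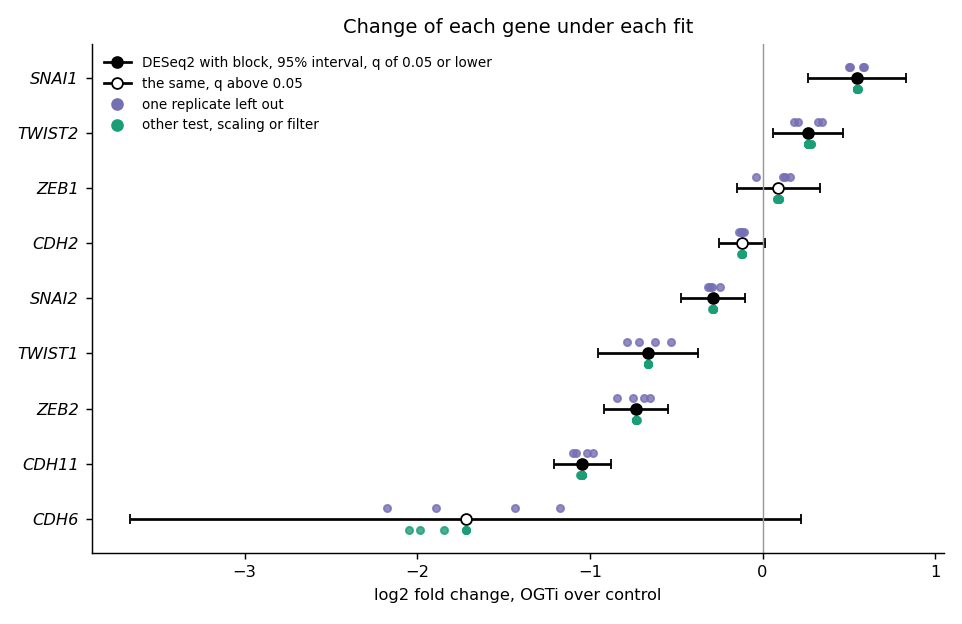
Log2 fold change of OGTi over control (horizontal axis) for each measured gene. Black points with 95% intervals are DESeq2 with the replicate block, filled where q was 0.05 or lower, purple points leave out 1 replicate, and green points use another test, scaling or filter. CDH11 lies at -1.05, away from CDH2 at -0.12, and only ZEB1 has points on both sides of 0.

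Replicate 1 was at the same extreme of both groups in 6 of the 9 genes, being the highest for SNAI1, TWIST2 and CDH6 and the lowest for SNAI2, CDH2 and CDH11. Replicates 2, 3 and 4 were at the same extreme of both groups in 2, 3 and 1 of the genes. The counts for replicates 1 and 2 include CDH6, which was close to the detection limit. No share over all genes is given beside these counts. The spread of SNAI2 and CDH2 within a group was thus shared by the libraries of the same number, which is the variation that the replicate block takes up.

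Apart from the pseudocount of 1 added to each normalized count, ratios of related genes within a library do not depend on its size factor. On the log2 scale, 5 were compared with a two-sided exact permutation test of 4 against 4 libraries, whose smallest possible p is 0.0286. The ratio of TWIST1 to TWIST2 was -1.43, -0.99, -1.18 and -1.53 in control and -3.00, -1.87, -1.92 and -2.05 in OGTi replicates 1 to 4. It was lower in all OGTi than in all control libraries, by a difference of -0.93 (exact permutation p of 0.0286, q over the 5 ratios of 0.0476). TWIST1 supplied 29.2% ± 3.5 of the counts of both TWIST genes in control and 18.2% ± 4.8 in OGTi, while their sum was 1662 ± 209 and 1736 ± 301 normalized counts. The TWIST genes together thus differed by less than the spread between libraries, whereas the share of TWIST1 differed by more.

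The ratio of ZEB1 to ZEB2 was -2.80, -2.61, -2.80 and -2.57 in control and -1.92, -1.74, -1.90 and -1.92 in OGTi. The groups did not overlap, and the difference was 0.83 (exact permutation p of 0.0286, q of 0.0476). ZEB1 made up 13.4% ± 1.0 of the ZEB counts in control and 21.5% ± 1.0 in OGTi, with a sum of 4740.0 ± 551 in control and 3146 ± 362 in OGTi. The ratio of SNAI1 to SNAI2 was -1.53, -2.15, -2.40 and -2.21 in control and -0.67, -1.06, -1.71 and -1.55 in OGTi. It was higher in OGTi in 4 of 4 pairs by 0.83, but control replicate 1 was above OGTi replicates 3 and 4, and the exact permutation test gave a p of 0.0857 (q of 0.107). SNAI1 accounted for 19.4% ± 4.3 of the SNAI counts in control and 30.0% ± 7.0 in OGTi.

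For the cadherins, the ratio of CDH2 to CDH11 was 0.07, 0.20, 0.21 and 0.38 in control and 0.85, 1.0, 1.28 and 1.42 in OGTi. Every OGTi library was above every control library, and the difference was 0.92 (exact permutation p of 0.0286, q of 0.0476). CDH2 supplied 53.7% ± 2.2 of the counts of this pair in control and 68.7% ± 3.9 in OGTi. The ratio of CDH6 to CDH11 differed by -0.21 with an exact permutation p of 0.943, and its sign changed without replicate 1 (0.06) or replicate 3 (0.16). With a pseudocount of 0.5 this difference was -0.32. An exact sign-flip test over the 4 replicate blocks cannot give a p below 0.125, which was its value for each of the other 4 ratios (q of 0.156).

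**Figure D3:**
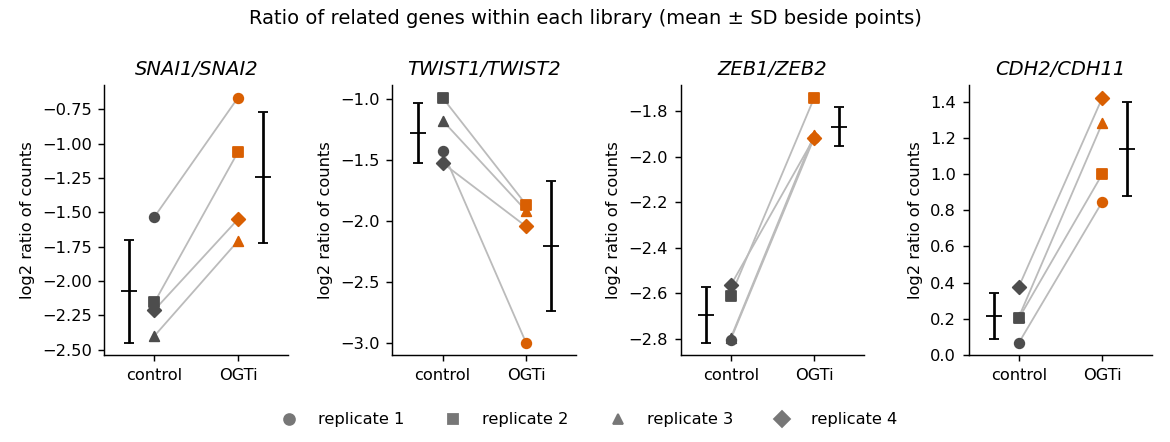
Log2 ratio of normalized counts (vertical axes, each with its own range) of 4 pairs of related genes in each control (grey) and OGTi (orange) library, with lines joining pairs and mean ± SD beside the points (n = 4). The TWIST1 to TWIST2 ratio is lower in OGTi, with replicate 1 at -3.00, and the ratios of ZEB1 to ZEB2 and CDH2 to CDH11 are higher in OGTi without overlap. The SNAI1 to SNAI2 ratio overlaps between the groups.

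Levels of different genes can be compared only per length, so counts were divided by the length of the canonical transcript and scaled to a sum of 1000000 per library. On this scale CDH2 led in control at 109.8 ± 28.8 (mean ± SD, n = 4), followed by TWIST2 at 87.6 ± 10.2, CDH11 at 56.1 ± 13.2, SNAI2 at 47.8 ± 7.8 and ZEB2 at 44.4 ± 5.4. TWIST1 at 30.0 ± 6.3, SNAI1 at 14.4 ± 1.3, ZEB1 at 10.7 ± 1.6 and CDH6 at 0.127 ± 0.124 were lower. The ranges of CDH2 and TWIST2 overlapped, as did those of CDH11 with SNAI2, SNAI2 with ZEB2 and ZEB2 with TWIST1. Within a library, CDH11 was above SNAI2 and ZEB2 above TWIST1 in 4 of 4 controls, while CDH2 was above TWIST2 and SNAI2 above ZEB2 in 3 of 4, and these last neighbours do not differ beyond their spread. TWIST2 lay above CDH11, TWIST1 above SNAI1, SNAI1 above ZEB1 and ZEB1 above CDH6 in all control libraries without overlap. CDH2 exceeded 87.1% of the 14081 tested genes with a length in control, SNAI1 exceeded 46.1%, and CDH6 exceeded 6.5%.

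In OGTi the order on the same per-length scale was TWIST2 (110.1 ± 25.0), CDH2 (104 ± 25.7), SNAI2 (40.4 ± 6.3), CDH11 (27.8 ± 4.8), ZEB2 (27.7 ± 4.1), SNAI1 (21.8 ± 3.8), TWIST1 (19.5 ± 3.6), ZEB1 (11.8 ± 1.1) and CDH6 (0.0305 ± 0.0219). TWIST2 was above CDH2 in 1 of 4 OGTi libraries only, and SNAI1 was above TWIST1 in 3 of 4, with overlapping ranges. In control TWIST1 had been above SNAI1 in 4 of 4 libraries. CDH11 passed from above SNAI2 in all 4 control libraries to below it in all 4 OGTi libraries, although the ranges of these genes overlapped in both groups. When the summed length of all annotated exons was used instead, TWIST2 came first in control (99.8) ahead of CDH2 (92.8), SNAI2 (57.4) passed CDH11 (51.3), and TWIST1 (44.2) passed ZEB2 (28.4). SNAI1 was then at 26.0.

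**Figure D4:**
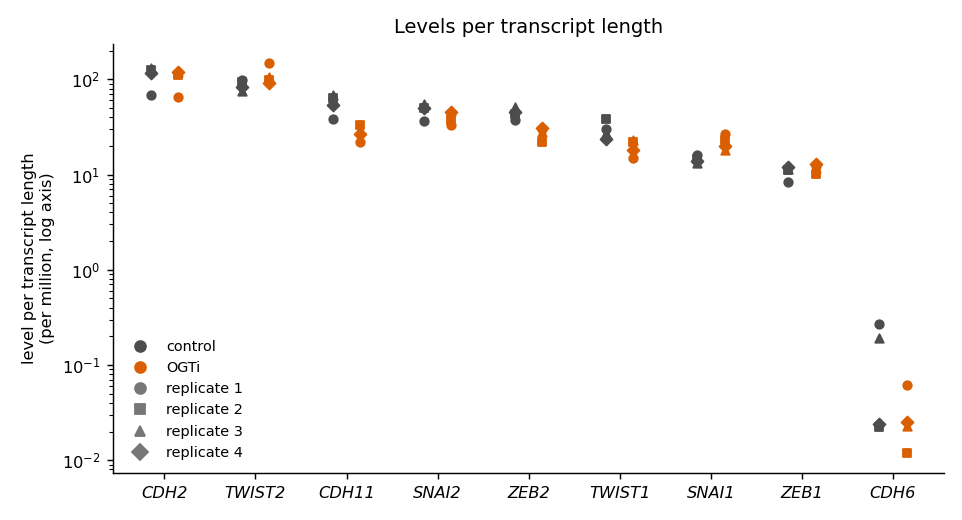
Level per length of the canonical transcript, scaled to a sum of 1000000 per library (vertical log axis), of each measured gene in each control (grey) and OGTi (orange) library, with a marker shape for each replicate number. Genes are ordered by the control mean, from CDH2 at 109.8 to CDH6 at 0.127, and CDH11 in OGTi lies at the level of ZEB2.

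Among the other cadherins, 16 were listed, 12 had a row, and 6 had enough counts to be tested. Of these, 4 were called higher (21.4% of all genes) and 1 lower (22.6%), and 3 were called in all when replicate 3 or replicate 4 was left out. CDH4, or R-cadherin, a classical cadherin related to CDH2, rose from 9750 ± 1724 to 13908 ± 2508 normalized counts (log2 fold change 0.51 ± 0.08, q of 5.82e-09 in DESeq2). CDH13, or T-cadherin, a cadherin anchored in the membrane by a lipid and lacking the tail that binds catenins, rose from 10446 ± 842 to 14056 ± 385 (0.43 ± 0.07, q of 5.56e-10). Both were higher in 4 of 4 pairs without overlap. The other called genes, named after their values were seen, were CDH5 (37.3 ± 9.6 to 3.9 ± 2.1 normalized counts, log2 fold change -3.31 ± 0.62, q of 5.83e-07), CDH3 (4.8 ± 4.6 to 18.1 ± 6.4, q of 0.0118) and CDH24 (0.21 ± 0.09, q of 0.0462), which overlapped between the groups and was higher in 3 of 4 pairs. CDH5 is the cadherin of endothelium and CDH3 that of placenta and basal epithelia, and both were low here. CDH1, the E-cadherin gene that SNAI and ZEB factors repress, had 0 to 2 counts per library and 5 in all, under the total needed for a test, and no difference was detectable at this depth.

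Catenins and actin linkers connect cadherin tails to the cytoskeleton. Of 11 tested, 2 were called higher (21.4% of all genes) and 6 lower (22.6%), with a median log2 fold change of -0.22. The rises were JUP, plakoglobin, which can take the place of beta-catenin (2255 ± 113 to 3669 ± 214 normalized counts, 0.70 ± 0.08, q of 9.02e-19 in DESeq2), and ARVCF, a p120 relative named after its values were seen (0.49 ± 0.15, q of 0.00336). The largest fall was that of PLEKHA7, a partner of p120 at the zonula adherens, from 3457 ± 311 to 1904 ± 360.0 (-0.88 ± 0.09, q of 5.31e-23). The core catenins, also chosen after their values were seen, all fell: CTNNB1 by 0.34, CTNNA1 by 0.28 and CTNND1 by 0.22 on the log2 scale, with q values of 1.74e-06, 8.71e-05 and 0.00447 in DESeq2. All 3 were lower in 4 of 4 pairs.

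Relatives of the SNAI, TWIST and PRRX factors and dimer partners of TWIST formed a list with 8 tested genes. Of these, 2 were called higher (21.4% of all genes) and 4 lower (22.6%). The E proteins TCF3, TCF4 and TCF12, with which TWIST proteins pair on DNA, all fell, by 0.44, 0.70 and 0.65 on the log2 scale (q of 1.12e-09, 1.08e-06 and 1.20e-16 in DESeq2), without overlap between the groups. They were named after their values were seen. ID1 and ID2 encode proteins that lack a DNA-binding region and capture E proteins. ID1 rose from 743 ± 126 to 1227 ± 259 normalized counts (0.72 ± 0.11, q of 7.63e-10) and ID2 from 68.3 ± 19.5 to 154 ± 28.6 (1.18 ± 0.27, q of 4.05e-05), each in 4 of 4 pairs. Their relative ID3, also seen first, moved the other way (-0.40 ± 0.12, q of 0.00271), lower in 3 of 4 pairs. SNAI3, PRRX2, HAND1 and HAND2 averaged under 10 normalized counts in each group.

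Of 11 tested corepressors recruited by SNAI and ZEB proteins, 6 were called lower (22.6% of all genes) and 0 higher (21.4%). Their median log2 fold change was -0.23. All 11 fold changes were below 0, and the number higher was also 0 in edgeR and at an unadjusted p under 0.05. The LIM proteins AJUBA and WTIP, which bind the SNAG repression domain of Snail, had the largest falls. AJUBA fell from 10881 ± 669 to 4724 ± 873 normalized counts (-1.22 ± 0.10, q of 1.55e-33 in DESeq2) and WTIP from 441 ± 52.7 to 117 ± 29.4 (-1.93 ± 0.17, q of 6.65e-28). Their relative LIMD1 did not pass (-0.12 ± 0.08, q of 0.206). CTBP1, the corepressor of ZEB proteins, fell by 0.55 on the log2 scale (q of 5.77e-15), while the demethylase KDM1A (-0.07, q of 0.463) and RCOR1 (-0.04, q of 0.797) did not pass. LIMD1, CTBP1, KDM1A and RCOR1 were chosen after their values were seen.

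Of 9 tested genes that set the lifetime of the Snail protein, 2 were called higher and 1 lower, a share below the 43.9% of all genes called, 6 did not pass, and the median log2 fold change was 0.03. USP27X, a deubiquitinase that stabilises Snail, rose from 97.6 ± 23.1 to 172 ± 26.0 normalized counts (0.83 ± 0.23, q of 0.00131 in DESeq2). FBXL5, an F-box protein that targets Snail for degradation, fell from 1709 ± 92.4 to 1359 ± 99.4 (-0.33 ± 0.09, q of 0.000388). FBXO22, named after its values were seen and likewise a ligase subunit, was the other rise (0.29 ± 0.11, q of 0.0171). The kinase GSK3B (-0.15, q of 0.147) and the ligase subunit BTRC (0.03, q of 0.874) did not pass.

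Of 13 other transition factors tested, 4 were called higher and 2 lower, a share near the 43.9% of all genes called. TBX3, a T-box repressor, rose from 832 ± 173 to 2266 ± 42.5 normalized counts (1.47 ± 0.11, q of 9.35e-36 in DESeq2), and its 4 OGTi libraries lay between 2219.8 and 2316. RUNX2, the osteoblast factor, fell from 713 ± 91.2 to 311 ± 36.6 (-1.19 ± 0.12, q of 5.50e-22). The other rises included TBX2 and SOX9, and LEF1 was the other fall, named after their values were seen. FOXC1, FOXC2, FOXF1 and HMGA2 did not pass the test.

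Of 15 tested epithelial genes and factors that guard the epithelial state, 0 were called higher (21.4% of all genes) and 6 lower (22.6%). The share called was near the 43.9% of all genes, and 9 did not pass. The number higher was also 0 in edgeR and at an unadjusted p under 0.05. MUC1, a mucin of epithelial surfaces, fell from 224 ± 54.1 to 97.3 ± 23.0 normalized counts (-1.20 ± 0.21, q of 5.91e-08 in DESeq2), and PKP3, a desmosomal plakophilin, from 184 ± 35.5 to 108 ± 19.4 (-0.76 ± 0.22, q of 0.00176). Without replicate 2 the q of PKP3 was 0.0507. The other falls, named after their values were seen, were PKP2, KRT8, KRT18 and TJP1, each with group means of 1531 normalized counts or more. Of the 26 genes listed, 22 had a row.

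Of 9 tested mesenchymal effectors, 1 was called higher (21.4% of all genes) and 5 lower (22.6%), with a median log2 fold change of -0.30. TNC, the matrix protein tenascin-C, fell from 24315 ± 2017 to 13596 ± 4238 normalized counts (-0.89 ± 0.20, q of 3.23e-05 in DESeq2). POSTN, periostin, was lower in 4 of 4 pairs (200 ± 124 to 81.3 ± 38.5, -1.28 ± 0.24, q of 6.86e-07), though its groups overlapped and its q was 0.0568 in DESeq2 without the replicate block. FN1, SPARC and THY1 were the other falls and NT5E the rise, named after their values were seen. VIM, which encodes the intermediate filament vimentin and is the common label of mesenchymal cells, did not pass (-0.09 ± 0.07, q of 0.323). Without the block only 3 effectors were called in DESeq2.

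**Figure D5:**
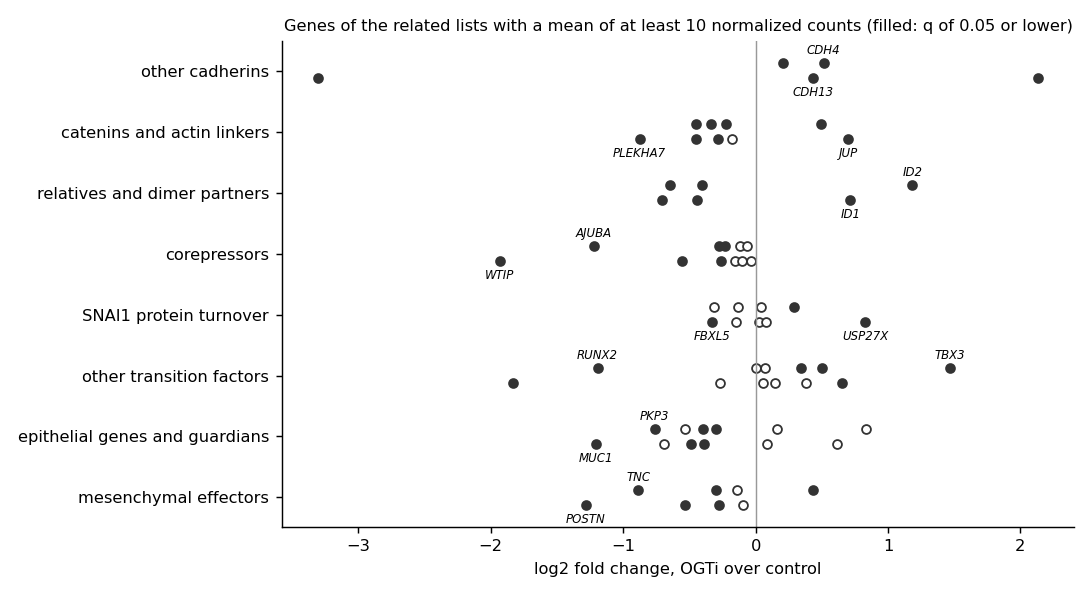
Log2 fold change of OGTi over control (horizontal axis) for the genes of 8 related lists that averaged at least 10 normalized counts, filled where q was 0.05 or lower in DESeq2, with the 2 named genes of each list labelled and points offset vertically for legibility. Corepressors and epithelial genes have filled points below 0 alone, with WTIP at -1.93, and TBX3 lies at 1.47.

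Genes whose log2 normalized count followed ZEB2 most closely over the 8 libraries, among 10993 genes with a mean of at least 100, included the Hippo pathway coactivator gene YAP1 (Pearson r of 0.994) and the zinc finger gene ZNF207 (0.989). For CDH11 they were the corepressor gene CTBP2 (0.997), ZNF880 (0.996) and the collagen gene COL12A1 (0.994). The 8 libraries share the same 2 groups and 4 replicate numbers, so these values describe likeness of pattern within them. The size of the change differed: CTBP2 had a log2 fold change of -0.26 ± 0.08 and COL12A1 of -1.04 ± 0.07, beside -1.05 for CDH11.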

How the data were processed

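Polyadenylated RNA was sequenced with a stranded protocol from 4 control and 4 OGTi cultures of LX-2 cells. The authors aligned reads to hg38 with Bowtie2 2.3.5.1 and counted them per gene with RSEM 1.3.1, per the labels and the study's methods. The deposited values are expected counts, in which RSEM divides reads with several alignments between genes, without scaling for depth. Fractional counts made up 12.9% to 16.3% of the values in a library. The authors' comparison table (log2 fold changes, standard errors, statistics and p-values, made with DESeq2 1.36.0) was not used.

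Expected counts were rounded, genes with a total under 10 counts were left out, and the other 14895 entered DESeq2 1.42.0 (Wald test, R 4.3.3) with the replicate number as a block, median-of-ratios size factors, independent filtering and unshrunken fold changes. A q of 0.05 or lower was a call. The block follows the study's methods. Same-numbered libraries deviated together (Pearson r of 0.137 to 0.380 over 11706 genes with a total of at least 400 counts), although control replicate 3 was closer to OGTi replicate 4 (0.272) and OGTi replicate 3 to control replicate 4 (0.202) than they were to each other (0.137). The alternatives were DESeq2 without the block, edgeR 4.0.16 quasi-likelihood with and without it, TMM factors, no count filter, a minimum total of 80, no independent filtering, and each replicate left out. Ratios used a pseudocount of 1 (alternative 0.5) and exact tests in SciPy 1.17.1. The fits were tested on simulated data. No libraries of a group were alike within sampling noise (chi-square per degree of freedom of 8.38 to 34.7).

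Positions and lengths came from GENCODE 44 on GRCh38, in which 15772 of 16796 symbols matched, and promoter windows came from RefSeq. The members and lists were chosen with earlier results of these data known. Genes named were the listed members, from each related list the 2 called genes with the largest change among those averaging 50 or more normalized counts with 1 direction in all 4 pairs, and for ZEB2 and CDH11 (the factor and the cadherin with the largest statistic) the 3 genes of highest correlation. Others are said to have been chosen after their values were seen. Genes without a row were not analysed here, and some genes that the rule names are not reported here.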

Additional observations from a re-analysis of the deposited data

Results flagged for a closer look

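A library was singled out when its gap to the nearest of the other 3 libraries of its group exceeded Dixon's 95% critical value for a group of 4. Of 72 groups of 4 libraries tested, 7 did so, and chance alone gives about 1 in 20. CDH2 in OGTi replicate 1 (2561 normalized counts) lay below the other OGTi libraries (4454 to 4648). ID1 in control replicate 2 (556) lay below the other control libraries (780.3 to 821). USP27X in control replicate 4 (132) lay above the others (82.8 to 88.3), and FBXL5 in control replicate 1 (1847) above the others (1651 to 1672). ZNF207 in OGTi replicate 2 (4865) lay below the others (5657 to 5729.8). The log2 ratio of TWIST1 to TWIST2 in OGTi replicate 1 was -3.00, against -2.05 to -1.87 in the others, and that of ZEB1 to ZEB2 in OGTi replicate 2 was -1.74, against -1.92 to -1.90.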

How the results depend on the processing

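Each change was recomputed under 11 alternatives. SNAI1, TWIST1, ZEB2 and CDH11 kept their direction and their call under every one that was run, and CDH2 and CDH6 were called under none of those run for them (CDH6 did not enter at a minimum total of 80). The replicate block mattered for SNAI2 and TWIST2: without it SNAI2 was -0.29 in DESeq2 (q of 0.0742) and -0.29 in edgeR (q of 0.0827), TWIST2 was 0.28 in both (q of 0.113 and 0.123), and the members called higher were 1 instead of 2 with either tool. Blocked edgeR called the same number of members. Leaving out 1 replicate gave 1 to 2 members called higher and 3 to 4 called lower. Over all genes those fits called 2416 to 2723 higher and 2670 to 2967 lower, fewer than the 3181 and 3360 with every replicate. The changes were then -0.31 to -0.24 for SNAI2, 0.18 to 0.35 for TWIST2 and -0.039 to 0.16 for ZEB1, which was -0.039 without replicate 1. The other cadherins called were 3 to 5 of 6 tested, with 3 without replicate 3 or replicate 4, and the mesenchymal effectors called were 3 without the replicate block in DESeq2. Among the other genes named by the rule, PKP3, POSTN and ZNF880 lost their call, in 5 fits in all. Genes chosen after their values were seen were not followed singly, and the number called in their lists changed in some fits. With 3 libraries a group the exact test cannot go below 0.1, so no ratio could pass. The ratio differences were then -1.06 to -0.71 for TWIST1 to TWIST2, 0.80 to 0.88 for ZEB1 to ZEB2, 0.87 to 0.97 for CDH2 to CDH11 and -0.64 to 0.16 for CDH6 to CDH11, which was 0.06 without replicate 1 and 0.16 without replicate 3. Sign flips over the replicate block left the differences at -0.93, 0.83 and 0.92 with a q of 0.156, since 4 pairs cannot give a p below 0.125. With summed exon length, control levels moved by more than 1 SD to 99.8 for TWIST2, 57.4 for SNAI2, 28.4 for ZEB2, 44.2 for TWIST1, 26.0 for SNAI1 and 13.3 for ZEB1. Other causes were not tested. CDH6 and CDH1 had low counts, and what part depth had in this was not tested. For ZEB1 and CDH2, measured in 4 libraries a group, the intervals are given with their values, and why they were not called was not tested.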
